A study of Mus musculus with 15 samples.

Results

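The locus described here is the maternally expressed noncoding stretch of mouse chromosome 12 that runs from Meg3 through Rian and Gm26945 to Mirg. It was chosen by measured values of these same libraries, because Gm26945 was among the transcripts with the smallest p for the difference between the groups, and its members are therefore described without a p for that difference. The members are all deposited rows whose annotated transcript (GENCODE M21, GRCm38) lies on the plus strand inside a fixed window around the locus, which gave 20 of 10370 listed transcripts. They belong to 5 genes and span 109541001 to 109741503 of chromosome 12, or 200.503 kb. The annotation places 45 transcripts of these 5 genes in the window. Of these, 7 of 11 Meg3 transcripts, 10 of 20 Rian transcripts, 1 of 12 Mirg transcripts and the only transcripts of Gm26945 and B830012L14Rik were listed, each with a mean of at least 130 normalized counts.

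The data are RNA-seq libraries of cortical total RNA from males labelled C57BL/6 (C57Bl/6J in the study's methods), 12 weeks of age by their labels, with 7 Sham and 8 HF-HI libraries collected 1 month after the procedure. HF-HI is high-frequency head impact, a mouse model in which anesthetized animals are given repeated impacts to the head on consecutive days, and Sham animals were handled and anesthetized with isoflurane in the same way without impact. Both groups are labelled with the same strain, sex and age, and the labels name no other genotype or agent. The comparison asks how the cortical transcriptome differs 1 month after HF-HI.

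Genomic imprinting silences a gene on either the maternal or the paternal chromosome. In the Dlk1-Dio3 domain the paternal chromosome expresses the protein-coding genes Dlk1, Rtl1 and Dio3, while the maternal chromosome expresses a run of noncoding RNAs in a single direction. Meg3 is a long noncoding RNA that is kept in the nucleus and is abundant in neurons. Rian, also called Meg8, carries a tandem array of C/D box small nucleolar RNAs (snoRNAs), and Mirg is the host of a large cluster of microRNAs (miRNAs) of which several act at synapses. Gm26945 and B830012L14Rik are long noncoding transcripts of the same strand. The small RNAs themselves were not measured here, since the rows are long transcripts.

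**Figure D1:**
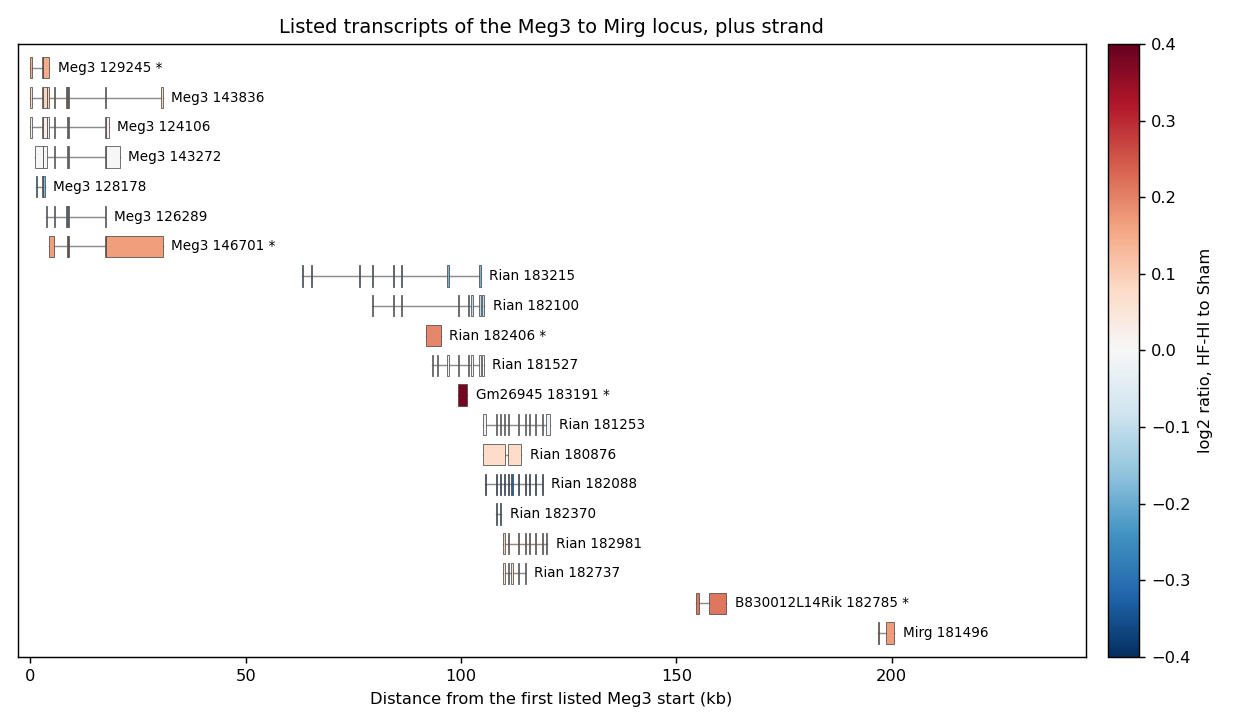
The 20 listed transcripts are drawn along the plus strand, with the distance from the first listed Meg3 start in kb on the x axis, boxes for exons, lines for introns and the last 6 digits of each transcript identifier as its label. Box color gives the log2 ratio of mean normalized counts in HF-HI to Sham, and an asterisk marks the 5 transcripts called at an unadjusted p under 0.05, among which Gm26945 has the highest ratio, 0.38.

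The sequences of the locus show how its long transcripts enclose the small RNAs. The annotation holds 59 miRNA genes and 23 snoRNA genes in the window. Of the miRNA genes, 3 lie inside an exon and 7 inside an intron of a listed transcript, and 50 lie outside all of them. Of the snoRNA genes, 7 lie inside an exon, 12 inside an intron and 10 outside, where a gene can be exonic in a transcript and intronic in another. Gm26945 is a single exon of 2011 bases (ENSMUST00000183191, chr12:109640341-109642351) and encloses the snoRNA Gm24899. The stretch chr12:109640962-109641154 of Gm26945 (plus strand, GRCm38, GENCODE M21 transcript sequence) is shown because it is the most clearly separated member, with the 73 bases of the snoRNA in capitals and 60 bases on each side.
Gm26945 around Gm24899: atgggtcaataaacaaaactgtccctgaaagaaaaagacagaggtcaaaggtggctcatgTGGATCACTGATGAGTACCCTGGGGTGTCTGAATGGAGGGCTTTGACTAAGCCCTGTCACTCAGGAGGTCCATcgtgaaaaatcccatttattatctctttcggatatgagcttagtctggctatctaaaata

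The single-exon transcript of Rian that was called in HF-HI, ENSMUST00000182406, encloses the snoRNAs Gm23474 and AF357425. They are set beside Gm24899 with the C box letters TGATGA and the D box letters CTGA in capitals, the latter searched only in the last 20 bases and both on the transcribed strand.
Gm24899: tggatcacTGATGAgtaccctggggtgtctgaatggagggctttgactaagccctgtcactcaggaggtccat
AF357425: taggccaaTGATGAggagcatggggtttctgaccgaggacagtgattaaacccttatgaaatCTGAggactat
Gm23474: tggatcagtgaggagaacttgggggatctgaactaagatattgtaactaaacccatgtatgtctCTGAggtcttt
Gm24899 (chr12:109641022-109641094) held the C box letters but not CTGA in its last 20 bases, AF357425 (chr12:109636012-109636084) held both, and Gm23474 (chr12:109633768-109633842) held only CTGA. Among all 23 snoRNA genes, 18 held TGATGA, 18 held CTGA near the end and 14 held both.

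Inside exons of listed transcripts lie 5 mature miRNAs, and their RefSeq sequences (GRCm38.p6) are given 5′ to 3′ with the seed, bases 2 to 8, in capitals. They show which miRNA precursors the exons of the listed Meg3 and Mirg transcripts contain.
miR-1906: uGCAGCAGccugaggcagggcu
miR-770-5p: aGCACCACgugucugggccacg
miR-770-3p: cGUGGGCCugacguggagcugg
miR-377-5p: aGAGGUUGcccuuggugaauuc
miR-377-3p: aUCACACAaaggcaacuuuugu
The miR-1906 sequence lies in an exon of 5 listed Meg3 transcripts, both miR-770 arms in the last exon of Meg3 ENSMUST00000146701, and both miR-377 arms in the last exon of Mirg. The table holds 106 mature miRNAs on the plus strand of the window with 97 distinct seeds. None of these 5 shares its seed with another of the 106, whereas 9 seeds are held by 2 or more of them.

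RefSeq gives Meg3 a pair of start sites. Each of the called Meg3 transcripts begins at or next to one of them, and so do some that were not called. The first promoter (chr12:109540746-109541045, GRCm38.p6, plus strand) runs from 250 bases before to 50 after the start at 109540996, and the second (chr12:109545148-109545447) lies around the start at 109545398. Capitals mark the cAMP response element TGACGTCA and the TATA letters TATAAA, searched on both strands, where the plus-strand TATAAA overlaps its reverse complement.
Meg3 first promoter: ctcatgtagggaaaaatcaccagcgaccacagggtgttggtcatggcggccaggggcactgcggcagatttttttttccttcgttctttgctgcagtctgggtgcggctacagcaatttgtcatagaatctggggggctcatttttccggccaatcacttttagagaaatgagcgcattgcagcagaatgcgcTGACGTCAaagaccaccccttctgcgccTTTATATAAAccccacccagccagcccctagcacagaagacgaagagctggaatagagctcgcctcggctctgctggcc
Meg3 second promoter: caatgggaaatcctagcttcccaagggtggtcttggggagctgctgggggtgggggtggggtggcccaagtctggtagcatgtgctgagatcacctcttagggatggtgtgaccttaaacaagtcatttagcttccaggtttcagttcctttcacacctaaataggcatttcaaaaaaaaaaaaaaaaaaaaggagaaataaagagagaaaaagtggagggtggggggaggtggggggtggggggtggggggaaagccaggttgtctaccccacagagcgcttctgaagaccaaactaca
In the first promoter TGACGTCA ended 49 bases and TATAAA 19 bases before the start. Of 32851 RefSeq promoters of the same length, 1.79% held TGACGTCA, 13.6% held TATAAA and 0.170% held both. Neither set of letters was found in the second Meg3 promoter or in those of Rian and Mirg. The CG dinucleotide occurred 13 times in the first Meg3 promoter, 1 time in the second, 10 times in that of Mirg and 0 times in that of Rian, against a median of 7 over all promoters. Meg3 ENSMUST00000129245 starts at 109541001, next to the first start, and ENSMUST00000146701 starts at 109545398, the second start. ENSMUST00000143836 and ENSMUST00000124106, which were not called, also start next to the first start, at 109541005 and 109541007.

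The deposited values of each library were turned back into normalized counts, in which libraries are scaled to a common depth. The listed transcripts held 5798810 to 10582858 reads per Sham library and 3496103 to 8666307 per HF-HI library, so HF-HI libraries were shallower on average. HF-HI replicate 2 stood apart on the first principal component, at 12.6 against −3.35 to 0.72 for the others. Between 15537 and 44669 reads per library fell in the locus, 0.363% to 0.422% of the reads in listed transcripts in Sham and 0.407% to 0.444% in HF-HI. Over the whole table limma called 916 of 10370 transcripts (8.83%) at an unadjusted p under 0.05, 512 of them (4.94%) higher in HF-HI. None had an adjusted p under 0.1, and a limma voom fit of the recovered reads, with 878 unadjusted calls, gave none either. The labels do not state that the libraries of a group came from separate animals, so these p-values measure the spread between libraries.

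Gm26945 was higher in HF-HI than in Sham, Meg3 was higher by less, and Rian, in whose introns Gm26945 lies, was nearly equal. In the locus 5 of 20 transcripts were called, all higher in HF-HI, beside the 4.94% called higher in the whole table. These are Gm26945, Meg3 ENSMUST00000146701 and ENSMUST00000129245, Rian ENSMUST00000182406 and B830012L14Rik, and since the locus was selected on this contrast, nothing is read from the count. The median log2 ratio of the 20 transcripts was 0.05, against −0.0019 for all listed transcripts. The ratio was above 0 for 12 transcripts and below 0 for 8. Without HF-HI replicate 2 the same 5 members were called, and the log2 ratios of the gene sums were 0.40 for Gm26945, 0.14 for Meg3, 0.03 for Rian, 0.24 for B830012L14Rik and 0.16 for Mirg. In bulk tissue, more RNA per cell and more cells of the type that makes it cannot be told apart.

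Gm26945 (ENSMUSG00000098061) had a lowest value of 265, a median of 360 and a highest value of 377 normalized counts in Sham. In HF-HI the lowest was 401, the median 443 and the highest 496. Every HF-HI library lay above every Sham library, a separation that 10 of the 10370 transcripts (0.0964%) showed. The means were 342 ± 43.4 (SD, n = 7) and 445 ± 35.4 (SD, n = 8), a 1.30-fold ratio or 0.38 on the log2 scale. The values rest on 246 to 589 reads per library. Within a group, its Pearson r to the log2 size factor, a measure of depth, was 0.10 in Sham (rho 0.18, exact permutation p = 0.835, adjusted p = 0.947) and −0.01 in HF-HI (rho 0.12, exact permutation p = 0.971, adjusted p = 0.971). Without the 2 libraries farthest from the median Gm26945 value r was 0.88 in Sham and 0.23 in HF-HI. With the log2 size factor in the model the log2 difference of Gm26945 was 0.39, and the part of depth in it was not tested further. The log2 ratio of Gm26945 was 0.33 to 0.41 when any single library was left out.

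**Figure D2:**
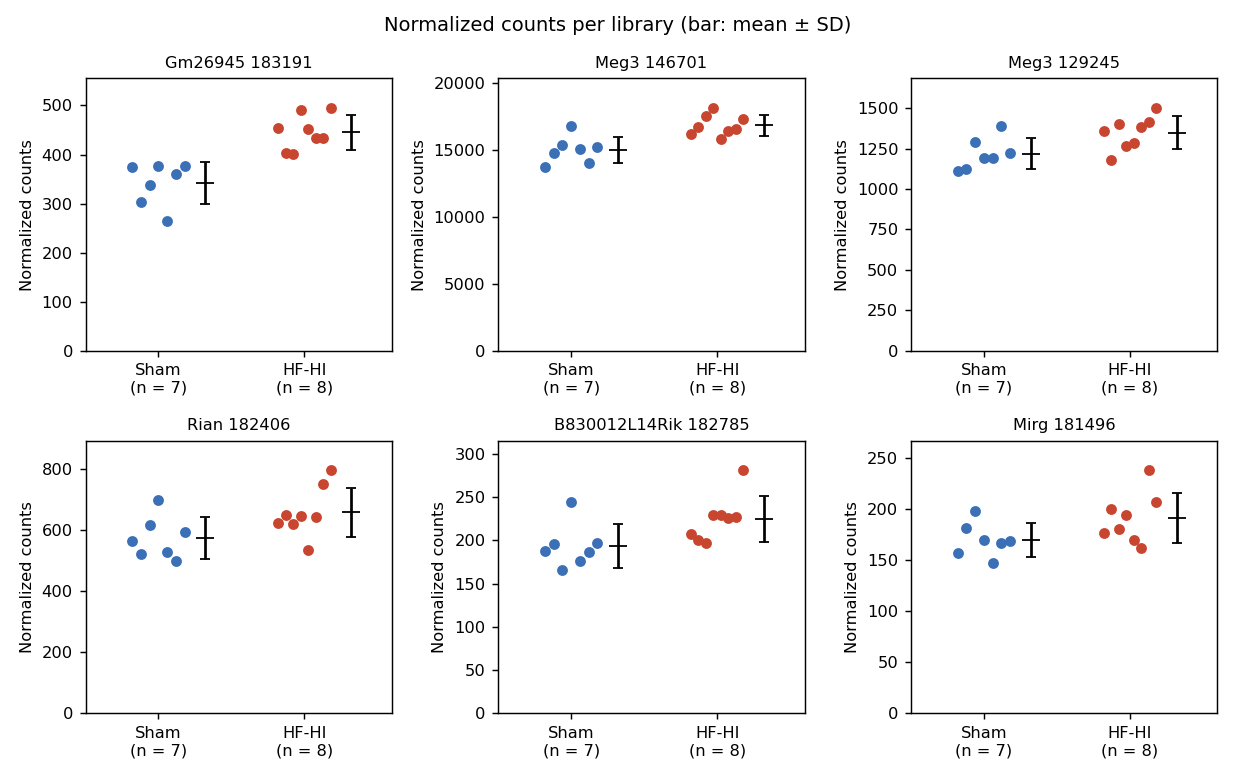
Each point is the normalized count of a library on the y axis, for 7 Sham and 8 HF-HI libraries on the x axis, in the 5 called transcripts and Mirg, and the bar beside the points gives the mean ± SD. The Gm26945 points do not overlap between groups (265 to 377 against 401 to 496), while those of the other transcripts do.

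Meg3 (ENSMUSG00000021268) was the most abundant gene of the locus, with 72.8% of its normalized counts. The lowest, median and highest sums over its 7 transcripts were 18220, 20057 and 22133 in Sham and 21036, 21406 and 23178 in HF-HI. All 8 HF-HI libraries were above the Sham median, and 6 of 7 Sham libraries lay below every HF-HI library, the exception being Sham replicate 4. The means were 19883 ± 1231 and 21859 ± 889, a log2 ratio of 0.14. Of gene sums over the 7741 annotated genes, 418 (5.40%) were called higher at an unadjusted p under 0.05, and in the locus these were Meg3, Gm26945 and B830012L14Rik.

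Most Meg3 counts lay in a single isoform. ENSMUST00000146701, whose last exon of 13087 bases holds miR-770, had 13774, 15120 and 16826 as its lowest, median and highest value in Sham and 15864, 16669 and 18187 in HF-HI. Here too only Sham replicate 4 reached into the HF-HI range. Its means were 15026 ± 997 and 16860 ± 768, a log2 ratio of 0.17, and it made up 75.6% ± 0.85 of Meg3 in Sham and 77.1% ± 1.24 in HF-HI. ENSMUST00000129245, the short form from the first start, went from 1218 ± 96.7 to 1350 ± 101, a log2 ratio of 0.15, and 7 of 8 HF-HI libraries were above the Sham median. The other 5 Meg3 transcripts were not called, with log2 ratios from −0.18 to 0.09. ENSMUST00000128178 was counted with 1 to 340 reads in Sham libraries and 1 to 267 in HF-HI libraries, so its counts were the least stable of the locus. Overlapping isoforms share exons and the authors' counts divide reads among them by estimate, so a value of an isoform is less certain than the sum of its gene.

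**Figure D3:**
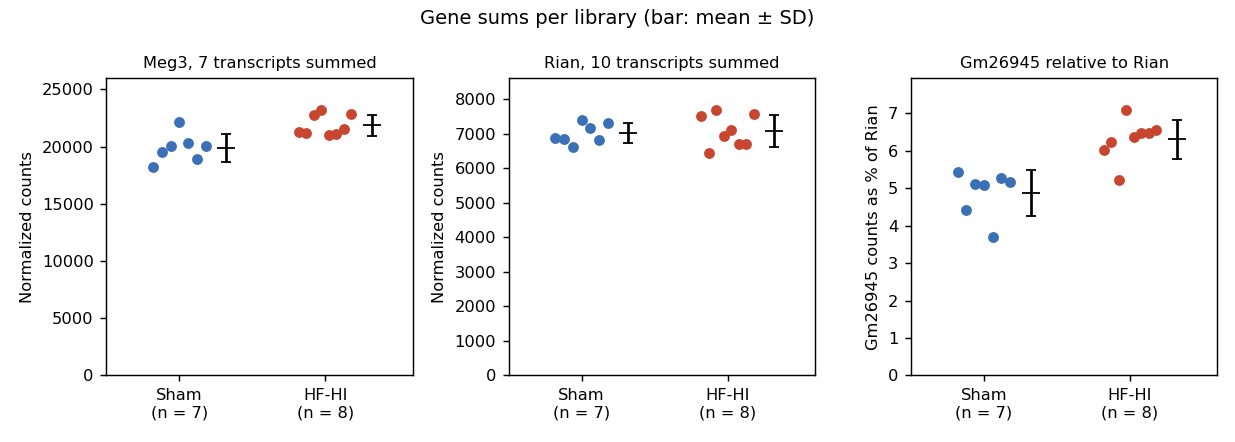
Points are single libraries, 7 Sham and 8 HF-HI, with the mean ± SD beside them, and the y axes give summed normalized counts of Meg3 and of Rian and, at the right, Gm26945 as a percent of Rian. Meg3 is higher in HF-HI (19883 to 21859 on average), Rian is nearly level (7010 and 7082), and the Gm26945 percent goes from 4.88 to 6.30.

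Rian (ENSMUSG00000097451), the snoRNA host, held 24.5% of the counts of the locus and was nearly equal between groups. The lowest, median and highest sums of its 10 transcripts were 6614, 6890 and 7398 in Sham and 6453, 7022 and 7680 in HF-HI. The HF-HI libraries reached both above and below the Sham range. The means were 7010 ± 287 and 7082 ± 464, a log2 ratio of 0.01. The Pearson r of Rian to the log2 size factor was 0.67 in Sham (rho 0.71, exact permutation p = 0.0869) and 0.73 in HF-HI (rho 0.62, exact permutation p = 0.0515). Without the 2 libraries farthest from the median Rian value r was 0.79 and 0.67, and neither relation passed adjustment over the 30 examined (adjusted p = 0.521 and 0.411). With the log2 size factor in the model the log2 difference was 0.09 and passed the unadjusted threshold, and the part of depth in the equality of the groups was not tested further.

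Among Rian transcripts, the single-exon ENSMUST00000182406 (chr12:109632798-109636273) was called, with a lowest, median and highest value of 498, 565 and 696 in Sham and 536, 645 and 795 in HF-HI. The ranges overlapped, although 7 of 8 HF-HI libraries were above the Sham median. Its means were 574 ± 68.3 and 658 ± 80.2, a log2 ratio of 0.20, and its share of Rian went from 8.19% ± 0.882 to 9.33% ± 1.27. Its call was lost when HF-HI replicate 7 or 8 was left out, and also in the absence of Sham replicate 1, 2, 5 or 6. The most abundant Rian transcript, the spliced ENSMUST00000181253, had 2698 ± 195 and 2664 ± 247. The other 8 ranged in log2 ratio from −0.32 to 0.10 and none was called. The lowest ratio belonged to the spliced ENSMUST00000182088, with 290 ± 38.3 in Sham and 232 ± 76.7 in HF-HI, where HF-HI replicate 2 was at 89.2.

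Gm26945 lies inside introns of 3 listed Rian transcripts and overlaps no exon of the 10 listed Rian transcripts. In ENSMUST00000182100 and ENSMUST00000181527 it fills 89.9% of intron 4 (chr12:109640329-109642564, 2236 bases), starting 12 bases after the upstream exon and ending 213 bases before the next. In ENSMUST00000183215 it lies in intron 7, which is 7335 bases long. Reads of an independent Gm26945 transcript and reads of unspliced Rian RNA in that intron cannot be told apart in these values. Both spliced Rian transcripts that flank it closely were not called, at 423 ± 56.2 and 393 ± 82.2 for ENSMUST00000182100 and 190 ± 16.1 and 188 ± 38.0 for ENSMUST00000181527. Relative to the Rian sum, Gm26945 was at 3.69% to 5.44% in Sham and at 5.22% to 7.08% in HF-HI, where 7 of 8 HF-HI libraries lay above every Sham library.

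B830012L14Rik (ENSMUST00000182785, chr12:109695586-109702587) lies between Rian and the miRNA cluster. Its lowest, median and highest values were 166, 188 and 244 in Sham and 197, 227 and 281 in HF-HI. All 8 HF-HI libraries were above the Sham median, and only 1 was above every Sham library. The means were 194 ± 24.9 and 225 ± 26.5, a log2 ratio of 0.22. Its call at the transcript level was lost when Sham replicate 1, 3, 5 or 6 or HF-HI replicate 8 was left out.

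Mirg (ENSMUST00000181496, chr12:109737780-109741503) is at the far end of the locus and is the only one of 12 annotated Mirg transcripts in the table. It had 147, 169 and 198 normalized counts as lowest, median and highest value in Sham and 162, 187 and 238 in HF-HI. The ranges overlapped, with 7 of 8 HF-HI libraries above the Sham median. The means were 170 ± 16.6 and 191 ± 24.3, a log2 ratio of 0.17, and it was not called. In Sham, Mirg was the gene of the locus with the strongest relation to depth (Pearson r = −0.87 to the log2 size factor, exact permutation p = 0.00714, adjusted p = 0.193, rho = −0.64, n = 7), and r was −0.76 without the 2 libraries farthest from the median. With depth in the model its log2 difference was 0.04, and in libraries with a size factor above 0.8 its log2 ratio was 0.08.

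Per kb of exon, the spliced Rian ENSMUST00000181253 (1146 normalized counts per kb in Sham) and Meg3 ENSMUST00000146701 (1033 per kb) had the highest levels of the locus. Gm26945 had 170 per kb in Sham and 221 in HF-HI, about as much as the single-exon Rian ENSMUST00000182406 (165 and 189). Mirg was at 89.1 and 100.2 per kb, and B830012L14Rik, at 43.0 and 49.9, was the lowest.

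**Figure D4:**
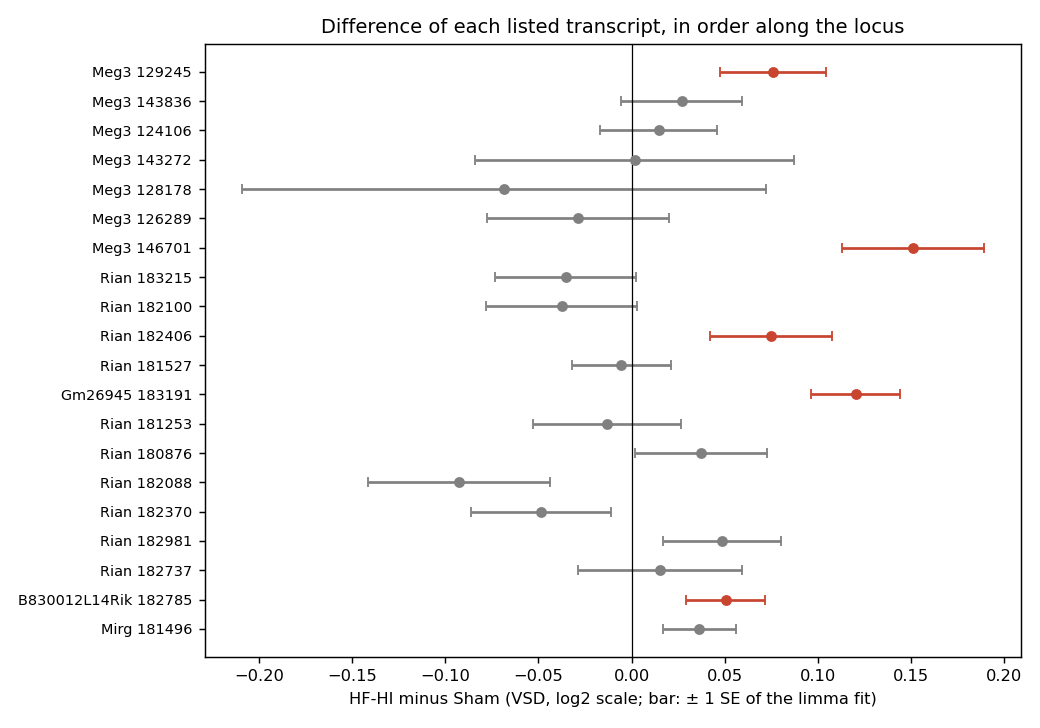
Points give the HF-HI minus Sham difference of each of the 20 transcripts on the deposited log2 (VSD) scale, with ± 1 SE of the limma fit, in order along the locus from top to bottom. The 5 called transcripts are in red, all to the right of 0, and the widest bar belongs to Meg3 ENSMUST00000128178.

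The called members had in common a long exon, a grouping made after their values were seen and given without a test. Of the 8 transcripts with an exon of 1 kb or more, all 8 had a log2 ratio above 0, with a median of 0.17, and 5 were called, all higher, against 4.94% of all listed transcripts called higher. Of the 12 whose exons are all shorter, 4 were above 0 and 8 below, with a median of −0.05, and none was called. Just under 1 kb lies Rian ENSMUST00000181253 (971 bases, log2 ratio −0.02), and just over it Meg3 ENSMUST00000129245 (1293 bases, 0.15). Across the 20 transcripts Spearman's rho was 0.79 between log2 ratio and longest exon and 0.70 between log2 ratio and the percent of the span that is exonic. These transcripts share reads and libraries. For 40 lincRNA transcripts outside the locus the same coefficients were −0.18 and −0.05, and for all 10221 annotated transcripts outside it 0.05 and 0.0020. In the 25 alternatives that tested every member, the 8 long-exon transcripts were all above 0 in 16 and 7 of them in the rest. Of the other 12, 3 to 6 were above 0. The lowest of the 8, Meg3 ENSMUST00000143272, had a VSD difference of 0.0018 with an SE of 0.086. These alternatives refit the same libraries, and Gm26945, on which the locus was chosen, is among the 8. Nothing is therefore read from these counts or coefficients.

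**Figure D5:**
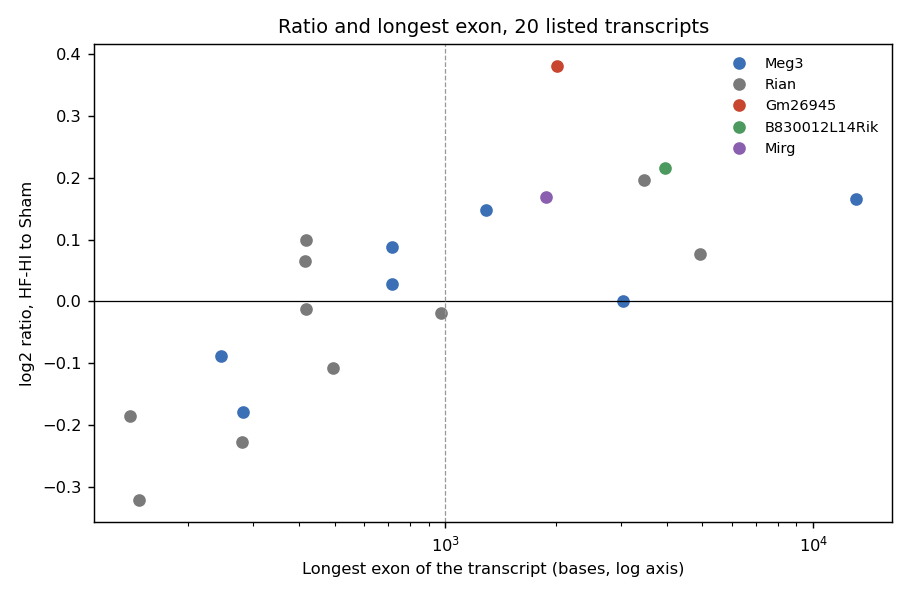
Each point is a listed transcript of the locus, with the length of its longest exon in bases on a log x axis and the log2 ratio of HF-HI to Sham on the y axis, and the dashed line stands at 1 kb. All 8 transcripts to the right of the line are at or above 0, from 0.00011 for Meg3 ENSMUST00000143272 to 0.38 for Gm26945, whereas 8 of the 12 to the left are below 0.

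An enclosed small RNA gene was not common to all called members. Of 12 transcripts with a small RNA gene inside an exon, 4 were called (median log2 ratio 0.08), and of the 8 without, 1 was called (median −0.10), all 5 higher, beside the same 4.94% of all listed transcripts. Among transcript classes outside the locus, 6 of 40 lincRNA transcripts were called, all of them higher in HF-HI, and 51 of 363 retained-intron transcripts, 37 higher and 14 lower. Of 9435 protein-coding transcripts 810 were called, 436 of them higher.

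Within groups, the gene sums of the locus were compared in pairs, with 7 or 8 libraries, and a relation that misses the threshold at this size does not show that the genes vary apart. Over the 30 relations among the 5 gene sums and the log2 size factor, none had an adjusted p under 0.05, and 2 had an unadjusted exact permutation p under 0.05. Besides Mirg and depth in Sham, this was Gm26945 and B830012L14Rik in HF-HI (Pearson r = 0.80, exact permutation p = 0.0129, rho = 0.83, exact permutation p = 0.0154, adjusted p = 0.193 and 0.461, n = 8). The same pair had r = 0.44 in Sham (exact permutation p = 0.323, n = 7), and in HF-HI r was 0.69 without the 2 libraries farthest from the median and 0.75 without HF-HI replicate 2. Among the other pairs, r was 0.62 for Meg3 and Rian (exact permutation p = 0.133), 0.71 for Rian and B830012L14Rik (exact permutation p = 0.0548) and 0.58 for Meg3 and B830012L14Rik (exact permutation p = 0.168) in Sham, and 0.47, 0.17 and 0.32 in HF-HI (exact permutation p = 0.236, 0.722 and 0.454). Without the 2 libraries farthest from the median of the first-named gene, these r were 0.40, 0.24 and −0.37 in Sham and 0.58, 0.32 and −0.57 in HF-HI. Gm26945 and Rian, which overlap in position, had r = 0.11 in Sham and 0.28 in HF-HI (exact permutation p = 0.818 and 0.488). Without the 2 libraries farthest from the median Rian value, r for Gm26945 and Rian was −0.64 in Sham and 0.58 in HF-HI.

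The likeness of each listed transcript to Gm26945 was measured as Pearson's r of group-centered values over the 15 libraries, as a description. With so few libraries, choosing the highest r among all listed transcripts raises it, and no background is given for it. The closest were Usp48 (a ubiquitin-specific protease, r = 0.81), a retained-intron transcript of Unc79 (a subunit of the NALCN channel complex, 0.80), Zmym3 (a zinc finger protein, 0.80), Zfp292 (a zinc finger protein, 0.80) and Per1 (a circadian clock repressor, 0.78). Within the locus B830012L14Rik was closest, at 0.59 and rank 132 of all listed transcripts, followed by Rian ENSMUST00000182406 at 0.39. For the mean of the Meg3 transcripts the closest were Poglut1 (a protein O-glucosyltransferase, 0.83), Tdrd3 (a Tudor-domain protein, 0.82), Amer2 (0.81), Atf7 (a transcription factor, 0.81) and a retained-intron transcript of Bcl11a (a transcription factor of cortical neurons, 0.81). The spliced Rian transcripts ENSMUST00000182088 and ENSMUST00000181253 followed at 0.75 and 0.72, ranks 13 and 29. This mean gives each Meg3 transcript equal weight. Its r to the Meg3 transcripts themselves ran from 0.0041 (ENSMUST00000128178) to 0.64 (ENSMUST00000143836). It was 0.61, rank 141, for the most abundant, ENSMUST00000146701, so likeness to the mean is not likeness to Meg3 abundance.

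Of the 6 nearest listed genes outside the imprinted domain, 1 was called, higher, beside 5.40% of all gene sums called higher. Dlk1, Rtl1 and Dio3, the paternally expressed coding genes, had no listed transcript and were not analysed here. The 3 nearest listed genes on the left, Evl (an actin regulator), Yy1 (a zinc finger transcription factor) and Wars (a tRNA synthetase), lie 647 to 852 kb away and had log2 ratios of 0.04, 0.03 and −0.15, none called. On the right, Ppp2r5c (a phosphatase subunit) and Hsp90aa1 (a chaperone) had −0.01 and 0.03. Dync1h1, the dynein heavy chain, 860 kb away, went from 11785 ± 288 to 12377 ± 305, a log2 ratio of 0.07 that was called by limma (unadjusted p = 0.0112, adjusted p = 0.353).

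Peg3 was the called member among other imprinted genes. Of 54 genes of an imprinted list, 26 were listed with 37 transcripts, and 1 transcript was called (2.70%, beside 8.83% of all listed transcripts), that of Peg3 (a paternally expressed zinc finger gene), which went from 3870 ± 86.0 to 4106 ± 120 (limma adjusted p = 0.345). The median log2 ratio of the 37 transcripts was 0.02. Of 23 regulators of imprints, 18 were listed with 24 transcripts and 2 were called, both higher (8.33%, beside 4.94% of all listed transcripts called higher). These were Tet3, which oxidizes 5-methylcytosine, from 678 ± 63.4 to 829 ± 79.9 (adjusted p = 0.267), and Zfp445, a zinc finger protein that protects imprints, from 694 ± 31.0 to 743 ± 36.8 (adjusted p = 0.504). The median of that list was 0.02.

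Of 21 other nuclear long noncoding RNAs, 9 were listed with 18 transcripts. Of these, 3 were called, all higher (16.7%, beside 4.94% of all listed transcripts called higher). A330023F24Rik, host of a miRNA pair, went from 874 ± 41.6 to 1062 ± 80.2 (log2 ratio 0.28, limma adjusted p = 0.206). Miat, a neuronal nuclear RNA, went from 399 ± 74.1 to 545 ± 104 in ENSMUST00000182953 (0.45, adjusted p = 0.369) and from 3055 ± 237 to 3320 ± 248 in ENSMUST00000181535 (0.12, adjusted p = 0.561). The median of the 18 was 0.03. The list was written with earlier results of these libraries known.

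The miRNA cluster of Mirg is known to be switched on by Mef2 factors and to act on synaptic targets such as Limk1 and Pum2. Of 18 genes listed as regulators or targets of the cluster, 16 had 23 transcripts in the table. Of these, 6 were called (26.1%, beside 8.83% of all listed transcripts), 3 higher and 3 lower, with a median log2 ratio of 0.01. These 6 include opposite isoforms of Pum2 and of Creb1. Reads are divided among isoforms by estimate, so the share does not count separate genes. Pum2, a translational repressor, was divided between an isoform that was higher (ENSMUST00000165293, 739 ± 154 to 1069 ± 211, limma adjusted p = 0.319) and an isoform that was lower (ENSMUST00000178015, 1192 ± 237 to 841 ± 168, adjusted p = 0.338). Creb1, the cAMP response element binding protein, was divided in the same way, with ENSMUST00000087366 from 448 ± 87.4 to 287 ± 129 (adjusted p = 0.514) and ENSMUST00000049932 from 261 ± 93.0 to 395 ± 156 (adjusted p = 0.561). Ago3, an Argonaute protein that binds miRNAs, went from 1023 ± 110 to 1144 ± 59.6 (adjusted p = 0.448). Mef2a, a transcription factor of the family that activates the cluster, went from 1453 ± 41.8 to 1324 ± 161 (ENSMUST00000156690, adjusted p = 0.565), with 6 of 8 HF-HI libraries below every Sham library.

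The tissue label was checked against markers. Of all 10370 listed transcripts 8.83% were called, 512 higher and 404 lower. All 7 cortical excitatory neuron markers were listed and 2 of their 8 transcripts were called (25%), both higher (Camk2a and Neurod2). The summed level of these markers was 14789 to 16799 in Sham and 15779 to 17596 in HF-HI. Of 20 transcripts of 5 general neuron markers, 1 was called (5%), Snap25, higher. Striatal markers had 7 of 8 genes listed and 3 of 14 transcripts called (21.4%), all lower (Pde10a, Ppp1r1b and Penk), with sums of 7013 to 10672 and 4993 to 10106. Transcripts of the mitochondrial genome had 6 of 9 called (66.7%), all lower, with sums of 225743 to 292947 and 151440 to 275122. Of the choroid plexus markers only Ttr was listed, at 35.0 to 6685 in Sham and 21.0 to 8663 in HF-HI. Inhibitory neuron, oligodendrocyte, endothelial and hippocampal markers had no call. Astrocyte markers had 1 call in 10 transcripts (Aldoc) and microglial markers 1 in 3 (P2ry12), both lower. The astrocyte marker sum was 41545 ± 959 in Sham and 42200 ± 1667 in HF-HI, and the microglial sum 914 ± 74.3 and 841 ± 76.9. These markers were named after their values were seen. The part of these shifts in the higher Meg3 and Gm26945 values was not tested.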

How the data were processed

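Cortical total RNA of 7 Sham and 8 HF-HI libraries was sequenced. The authors' methods describe stranded libraries depleted of ribosomal RNA, alignment to mm10 with STAR, transcript counts estimated by eXpress, and normalization with DESeq2; versions of STAR and eXpress and the annotation release are not given in the sources used here. The authors deposited variance-stabilized (VSD) log2 values for 10370 transcripts, in which low counts are compressed: a doubling from 100 normalized counts is 0.20 VSD and a doubling from 10000 is 0.89. Every column matched a labelled sample.

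The transformation was inverted from the value of a count of 0 (VSD 9.81), which gave normalized counts, size factors (0.818 to 1.47 in Sham, 0.501 to 1.22 in HF-HI) and whole reads (100.0% of values within 0.1 of a whole number). Identifiers were matched to GENCODE M21 (10241 matched, 129 not). Log2 ratios are of mean normalized counts, and log2 differences are fitted. Differences were fitted with limma 3.58.1 (R 4.3.3, eBayes with trend) on VSD of all transcripts, without a replicate block, and on log2(sum + 1) per gene; called means an unadjusted p under 0.05, and adjustment was Benjamini-Hochberg over all transcripts or genes tested. The fit was run on simulated counts to check the code, and no statement here rests on it. Correlations used exact permutation, two-sided. Members, lists and tests were chosen with earlier results of these data known. Named were all members, the 3 nearest listed genes on each side, the 5 transcripts most like Gm26945 and the 5 most like Meg3, and up to 4 called transcripts, by smallest p, of each of the 4 lists other than cell type markers; a second Creb1 transcript, Mef2a and single markers were named after their values were seen.
Alternatives were other scales and scalings, voom, depth, the replicate block, weights, a filter at a mean of 300, and leaving out each library; restriction to size factors above 0.8 was added after seeing the data.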

Additional observations from a re-analysis of the deposited data

Results flagged for a closer look

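In 44 groups of libraries (each transcript or gene sum of the locus in each group) the gap of the highest or lowest library was compared with Dixon's critical value, which chance exceeds in about 1 in 20 groups, and 3 exceeded it. Meg3 ENSMUST00000143272 was at 1481 normalized counts in HF-HI replicate 8, against 655 to 1019 in the other HF-HI libraries. B830012L14Rik was at 244 in Sham replicate 4, against 166 to 197 in the other Sham libraries, and at 281 in HF-HI replicate 8, against 197 to 230 in the other HF-HI libraries. These libraries were kept.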

How the results depend on the processing

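Over 26 alternatives Gm26945, Meg3 ENSMUST00000146701 and Meg3 ENSMUST00000129245 were called in every one. Rian ENSMUST00000182406 was called in 16 of 26 and B830012L14Rik in 18 of 25, and Mirg in 2 of 25. The count over all transcripts, 916, became 533 with the log2 size factor as a covariate and 525 among the 5438 transcripts with a mean of 300 or more normalized counts, where fewer were tested. It was 748 to 987 when single libraries were left out. The cause of the lower count with depth was not tested. Adjusted calls numbered at most 2, in 4 alternatives. The 5 locus calls became 3 to 7, and the 5 higher calls 3 to 6, when single libraries were left out. The count was 3 when HF-HI replicate 8 or Sham replicate 1, 5 or 6 was absent, and 7 (5 of them higher) in the absence of HF-HI replicate 3. The log2 ratios of gene sums without single libraries were 0.12 to 0.16 for Meg3, −0.0027 to 0.03 for Rian, 0.33 to 0.41 for Gm26945, 0.16 to 0.28 for B830012L14Rik and 0.12 to 0.21 for Mirg. With quantile normalization the VSD difference of Meg3 ENSMUST00000146701 was 0.23 in place of 0.15. In libraries with a size factor above 0.8, chosen after seeing the data, 656 transcripts were called, and Rian ENSMUST00000180876 differed by 0.09 VSD in place of 0.04.

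With the replicate number as a block over 7 pairs, 3 locus transcripts were called, all 3 higher, and 890 transcripts in all. This fit also lacks HF-HI replicate 8, which has no Sham library of its number. Leaving out that library without a block gave the same 3 locus calls, with the same differences, and 929 calls in all. Same-numbered libraries did not deviate together (correlations of −0.14 to 0.09, none of 7 over 0.1, and 1 library closest to its own number). The values thus gave no sign of pairing by number, and the labels do not say whether the numbers pair the samples. No within-group correlation had an adjusted p under 0.05 with or without HF-HI replicate 2, the only alternative under which their p-values were computed. Transcripts near 130 normalized counts were close to the floor of the listed table (lowest mean 108), and the VSD scale compresses their differences.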
